A study of Mus musculus with 7 samples.

Results

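The 7 β-1,4-galactosyltransferases, encoded by *B4galt1* to *B4galt7*, were followed across the livers of 7 mice. They were taken by symbol from the 23347 genes of the count table, and all 7 were among the 15179 genes that passed the filter on low counts. The control group, labelled WT, held 4 mice that the study's methods describe as *B4galt1* flox/flox littermates of the knockouts, so that both genotypes carry the floxed allele, and Cre is described for the knockouts alone. The group labelled B4galt1-HKO held 3 mice, written *B4galt1* hep-/- in the study, a design in which Cre driven by the albumin promoter is meant to delete the floxed gene in hepatocytes and leave it in other liver cells. All were young adult males on a C57BL/6 background at the start of the diet. For 15 weeks they received CDAHFD, a high-fat diet without choline in which amino acids replace protein, and chow-fed mice were not analysed here. Each library came from 1 mouse, and p-values measure the spread between mice.

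These enzymes sit in the Golgi and move galactose from UDP-galactose onto a sugar acceptor. B4GALT1 and its nearest relatives B4GALT2, B4GALT3 and B4GALT4 act on N-acetylglucosamine at the ends of glycoprotein and other glycan chains, B4GALT5 and B4GALT6 make lactosylceramide from glucosylceramide, and B4GALT7 adds the galactose of the short linker that joins glycosaminoglycan chains to proteoglycans. The liver secretes most plasma glycoproteins, whose N-glycans commonly end in galactose capped by sialic acid, and hepatocytes clear desialylated glycoproteins through the asialoglycoprotein receptor.

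*B4galt1* and *B4galt5* had the highest mean levels in the family in both groups, and their promoters are shown for that reason. Each is the 250 bases before the RefSeq start site on GRCm38.p6, read 5′ to 3′ on the strand of the gene, with capitals marking GGGCGG or its reverse complement CCGCCC, the GC box bound by Sp1-type factors. The *B4galt1* window is chr4:40853985-40854234 on the minus strand and the *B4galt5* window is chr2:167349179-167349428 on the minus strand.
B4galt1: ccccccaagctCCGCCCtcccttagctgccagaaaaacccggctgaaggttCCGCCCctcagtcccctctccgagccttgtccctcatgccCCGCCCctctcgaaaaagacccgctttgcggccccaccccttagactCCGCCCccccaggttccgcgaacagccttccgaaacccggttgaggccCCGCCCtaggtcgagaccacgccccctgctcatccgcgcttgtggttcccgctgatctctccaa
B4galt5: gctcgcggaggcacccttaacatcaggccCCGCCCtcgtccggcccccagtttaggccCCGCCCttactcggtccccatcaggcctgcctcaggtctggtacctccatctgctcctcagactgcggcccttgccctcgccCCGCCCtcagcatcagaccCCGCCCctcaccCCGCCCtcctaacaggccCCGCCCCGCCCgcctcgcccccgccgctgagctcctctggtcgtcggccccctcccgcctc
The motif occurred 5 times before *B4galt1* and 7 times before *B4galt5*, counting both strands and overlapping matches. RefSeq promoters were matched for 6 members, with no entry used for *B4galt6*. Among these, the motif was found in 5 windows, 2 times before *B4galt2* and 1 time each before *B4galt3* and *B4galt4*, and was not found in the window of *B4galt7*. It was present in 32.7% of 32851 windows of equal length. TATAAA, searched on both strands, was found in 0 of the 6 windows and in 12.4% of all windows. The GC content was 66.4% before *B4galt1*, 73.2% before *B4galt5* and 48.0% before *B4galt7*, against a median of 52.4% for all windows.

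Total counts ran from 37838654 to 39668509 per library in WT and from 30608271 to 34586588 in B4galt1-HKO. The 13 mitochondrially encoded protein genes took 3.88% to 8% of counts in WT and 14.4% to 22.6% in B4galt1-HKO. A gene was called when its adjusted p was under 0.05 by edgeR and its absolute log2 fold change was over 0.58, which 7.83% of tested genes did as lower in B4galt1-HKO. Hepatocyte markers were abundant in every library, with a summed level of 84500 to 124000 CPM (counts relative to library size, scaled by the trimmed mean of M-values, TMM) in WT and 96300 to 152000 in B4galt1-HKO, and 1 of 8 was called lower, *Cyp2e1*. Macrophage markers summed to 929 to 1900 CPM in WT and 475 to 529 CPM in B4galt1-HKO, and 4 of 8 were called lower, *Cd68*, *Adgre1*, *Trem2* and *Gpnmb*. Of the 6 endothelial markers 1 was called lower, *Kdr*, and none of the 8 stellate cell and fibroblast, 6 cholangiocyte, 6 lymphocyte or 4 tested neutrophil markers was called. No marker was at 0 in every library, and *Ly6g* had 0 to 1 counts. The part of these differences in the results on the family was not tested. In whole liver RNA, fewer cells of a type and less RNA per cell cannot be told apart.

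On TMM-scaled CPM, *B4galt1*, the gene targeted in these mice, was lower than every control in 2 of the 3 livers labelled B4galt1-HKO. Its level was 48.7, 53.0, 49.2 and 51.6 CPM in WT replicates 1 to 4, and 28.4, 23.9 and 53.7 CPM in B4galt1-HKO replicates 1 to 3. The libraries labelled replicates 1 and 2 thus held 56.0% and 47.1% of the WT mean, and the library labelled B4galt1-HKO replicate 3 held 106%, the highest of all 7 mice. That rank depended on the scaling. In deposited FPKM, replicate 3 was at 11.9, below the WT range of 12.2 to 14.0, and replicates 1 and 2 were at 6.47 and 6.52. The raw count of replicate 3, 1633, was also below the WT counts of 1828 to 2118. Its mitochondrial share of 14.4% and summed macrophage level of 529 CPM lay outside the WT ranges. Whether that library is labelled correctly was not tested, and B4galt1-HKO is used below for the libraries as labelled. The mean was 50.6 ± 2.01 CPM in WT (SD, n = 4) and 35.3 ± 16.1 CPM in B4galt1-HKO (SD, n = 3). The log2 fold change was -0.52 (SE 0.26, 95% interval -1.08 to 0.04), with an adjusted p of 0.181 in the edgeR quasi-likelihood fit, adjusted over all tested genes by Benjamini and Hochberg's method. Without B4galt1-HKO replicate 3 it was -0.96 with an adjusted p of 0.0139, and without B4galt1-HKO replicate 2 it was -0.30. Counts span the whole gene, so reads of exons outside the deleted part and reads from cells other than hepatocytes are included.

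**Figure D1:**
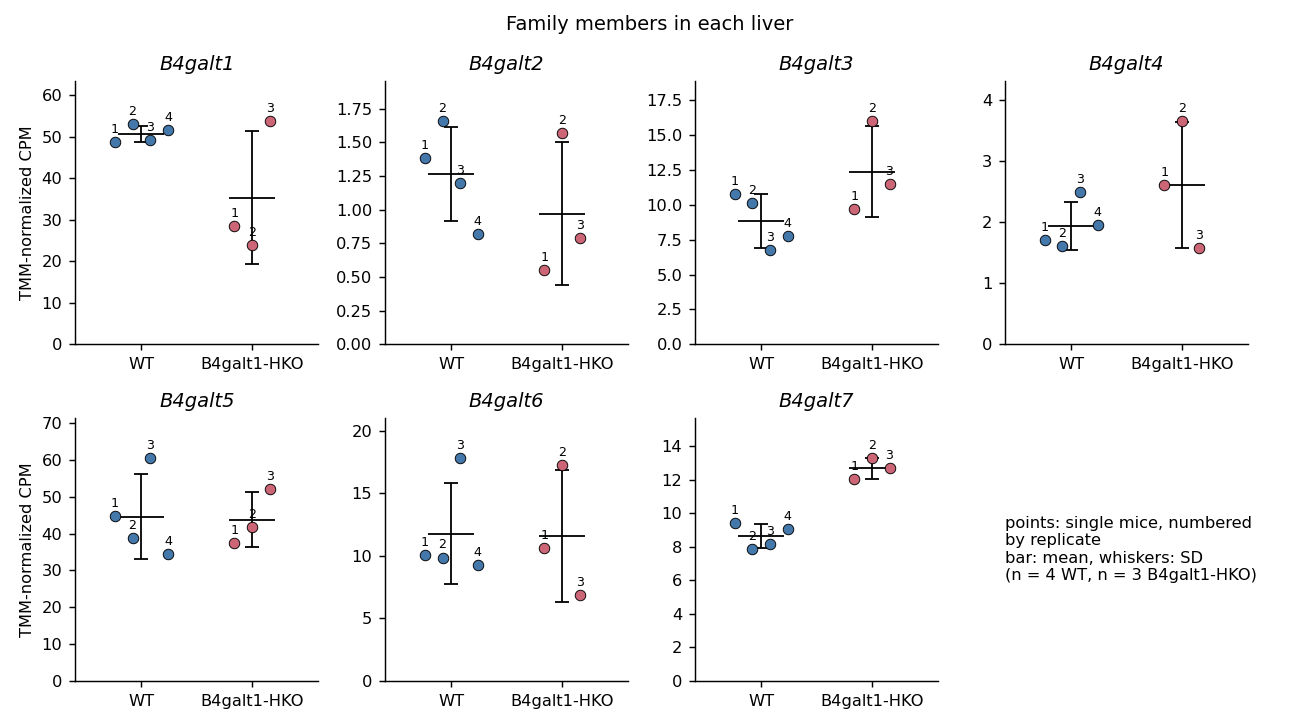
Level of each family member in each liver, in TMM-scaled CPM on axes that differ between panels, with one point per mouse and bars at the group mean with whiskers of 1 SD. The B4galt7 points of the 3 mice labelled B4galt1-HKO lie above all 4 WT points, and the B4galt1 point of B4galt1-HKO replicate 3, at 53.7, lies above all WT points.

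None of the 7 members was called, 0 of 7 by edgeR and 0 of 7 by DESeq2, against 15.8% and 21.5% of all tested genes. At an unadjusted edgeR p under 0.05 there was 1 member, *B4galt7*, against 32.9% of tested genes. On TMM-scaled CPM the groups did not overlap for 1 member of 7, again *B4galt7*, and for 28.6% of tested genes, 13.6% with B4galt1-HKO above WT. In FPKM, where the share over all genes was not taken, the groups of *B4galt1* did not overlap either. The fold changes were below 0 for 4 members and above 0 for 3, with a median of -0.02 on the log2 scale beside 0.02 over all tested genes.

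The relatives of *B4galt1* that act on N-acetylglucosamine differed widely between mice. *B4galt3* was at 10.8, 10.2, 6.75 and 7.74 CPM in WT and at 9.67, 16.02 and 11.5 CPM in B4galt1-HKO. Its highest mice were B4galt1-HKO replicates 2 and 3, while replicate 1 lay within the WT range, and the fold change was 0.49 on the log2 scale (SE 0.25, 95% interval -0.06 to 1.03, edgeR adjusted p = 0.199). Without B4galt1-HKO replicate 2 it was 0.26. *B4galt4*, which also acts on sulfated N-acetylglucosamine of keratan sulfate, was at 1.70, 1.61, 2.48 and 1.95 CPM in WT and at 2.60, 3.65 and 1.58 CPM in B4galt1-HKO. Here B4galt1-HKO replicates 1 and 2 exceeded all WT mice and replicate 3 was the lowest of the 7, so that the groups overlapped, with a log2 fold change of 0.43 (SE 0.37, interval -0.39 to 1.25, edgeR adjusted p = 0.451). It fell to 0.11 without B4galt1-HKO replicate 2 and was 0.68 without B4galt1-HKO replicate 3. *B4galt2* was the scarcest member, with 29 to 66 counts per WT library and 17 to 52 per B4galt1-HKO library. It was at 1.38, 1.66, 1.19 and 0.819 CPM in WT and at 0.552, 1.57 and 0.789 CPM in B4galt1-HKO. Its 2 lowest values were in B4galt1-HKO and its range there still overlapped that of WT (log2 fold change -0.38, SE 0.49, interval -1.44 to 0.68, edgeR adjusted p = 0.622). It was -0.91 without B4galt1-HKO replicate 2, -0.11 without B4galt1-HKO replicate 1 and -0.22 without WT replicate 2.

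The lactosylceramide synthases gave fold changes close to 0, with intervals that reach from a fall to a rise. *B4galt5*, the main lactosylceramide synthase of many tissues, was at 44.7, 38.7, 60.6 and 34.4 CPM in WT and at 37.4, 41.8 and 52.1 CPM in B4galt1-HKO. All 3 B4galt1-HKO values fell within the WT range, and the log2 fold change was -0.03 (SE 0.22, interval -0.51 to 0.46, edgeR adjusted p = 0.946). *B4galt6* was at 10.1, 9.86, 17.8 and 9.30 CPM in WT and at 10.6, 17.3 and 6.87 CPM in B4galt1-HKO. One control and 1 B4galt1-HKO mouse held the high values, and the log2 fold change was -0.02 (SE 0.33, interval -0.74 to 0.69, edgeR adjusted p = 0.972). The sign of both estimates depended on the processing: with upper-quartile normalization they were 0.0067 for *B4galt5* and 0.041 for *B4galt6*, and without WT replicate 3 they were 0.15 and 0.25. WT replicate 3, the highest mouse for both, also had the highest summed macrophage level, 1900 CPM, and the highest summed endothelial level, 291 CPM against 72.1 to 121 CPM elsewhere; their part was not tested.

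*B4galt7*, the linker galactosyltransferase, was the member whose groups were fully apart on TMM-scaled CPM. It was at 9.40, 7.88, 8.15 and 9.07 CPM in WT and at 12.0, 13.3 and 12.7 CPM in B4galt1-HKO. Each B4galt1-HKO mouse was above each WT mouse, at 139%, 154% and 147% of the WT mean, and replicate 3, in which *B4galt1* was not low on TMM-scaled CPM, was among them. The mean was 8.63 ± 0.726 CPM in WT (SD, n = 4) and 12.7 ± 0.645 CPM in B4galt1-HKO (SD, n = 3), and in raw counts per library 314 to 409 and 370 to 441. The log2 fold change was 0.55 (SE 0.19, 95% interval 0.14 to 0.97), with an unadjusted p of 0.0137 and an adjusted p of 0.069 by edgeR, short of the threshold. DESeq2 gave an adjusted p of 0.032 and limma with voom and library weights 0.0426, both with a log2 fold change under 0.58. These were the lowest of 21 alternatives, in which the adjusted p ran up to 0.232. Leaving out each mouse in turn gave 0.51 to 0.60 on the log2 scale. The FPKM table, which scales by the library total and is not TMM-scaled, had 3.44 to 4.67 in WT and 4.72 to 6.26 in B4galt1-HKO, and *B4galt7* was again higher in each B4galt1-HKO mouse. In FPKM the groups of *B4galt1* were apart as well, at 12.2 to 14.0 in WT and 6.47 to 11.9 in B4galt1-HKO.

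**Figure D2:**
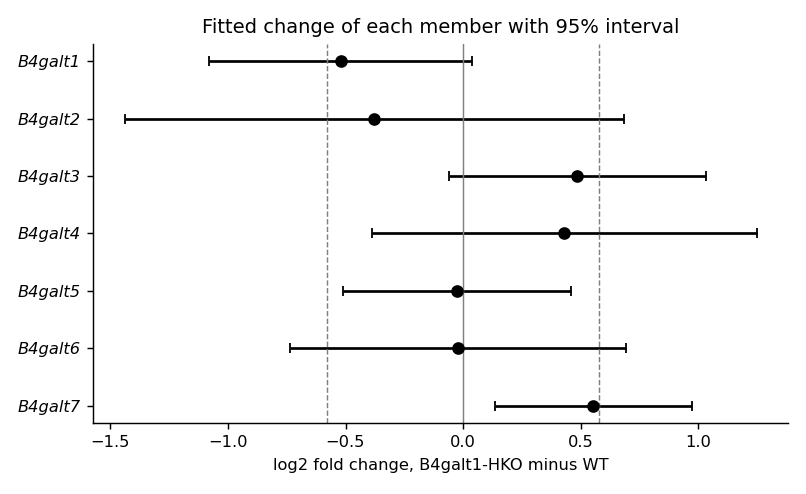
Fitted log2 fold change of each family member, B4galt1-HKO minus WT, with its 95% interval from edgeR; the dashed lines mark the size threshold of 0.58 in each direction. The interval of B4galt7, 0.14 to 0.97, lies above 0, and those of the other members include 0.

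B4galt1-HKO replicate 2 was the highest of all mice for *B4galt3*, *B4galt4* and *B4galt7*, and the second highest for *B4galt2* and *B4galt6*. It was also the lowest for *B4galt1*. Its library had the fewest counts, 30608271, and the highest summed level of cholangiocyte markers, 874 CPM against 254 to 658 CPM in the other mice; their part was not tested.

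Within the family, levels were compared as FPKM, which divides by gene length. In WT the order was *B4galt1* at 13.3 ± 0.775, *B4galt5* at 11.0 ± 3.43, *B4galt3* at 4.63 ± 1.23, *B4galt7* at 3.90 ± 0.533, *B4galt6* at 2.04 ± 0.784, *B4galt4* at 0.759 ± 0.175 and *B4galt2* at 0.343 ± 0.105 FPKM (mean ± SD, n = 4). The ranges of *B4galt1* and *B4galt5* overlapped, with *B4galt1* higher in 3 of 4 mice, and so did those of *B4galt3* and *B4galt7*. The remaining neighbours in the order were apart in all WT mice. In B4galt1-HKO the order opened with *B4galt5* at 9.77 ± 1.59 FPKM, then *B4galt1* at 8.30 ± 3.13, *B4galt3* at 6.04 ± 2.31, *B4galt7* at 5.27 ± 0.855, *B4galt6* at 1.89 ± 1.08, *B4galt4* at 0.965 ± 0.488 and *B4galt2* at 0.250 ± 0.167 FPKM (n = 3). Neighbouring ranges overlapped there except between *B4galt7* and *B4galt6* and between *B4galt4* and *B4galt2*. Averaged over the 7 mice, *B4galt1* lay above 76.7% of tested genes and *B4galt2* above 14.0%.

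Summed over the 7 members, the family stood at 36.0 ± 5.37 FPKM in WT and 32.5 ± 5.72 FPKM in B4galt1-HKO, and the ranges of 29.4 to 40.7 and 26.1 to 37.1 overlapped. On TMM-scaled CPM per kilobase the means were 34.43 and 34.05, so the gap between the groups depended on the scaling. *B4galt1* made up 35.2%, 39.7%, 32.9% and 41.5% of this sum in WT and 24.8%, 17.6% and 34.8% in B4galt1-HKO. The share in B4galt1-HKO replicate 3 was within the WT range and the others were below it. *B4galt7* made up 9.38% to 12.5% in WT and 14.1% to 18.1% in B4galt1-HKO. The share of *B4galt5* was 30.1% ± 5.35 (SD, n = 4) in WT and 30.1% ± 1.37 (SD, n = 3) in B4galt1-HKO. Without *B4galt1*, the other members summed to 22.7 ± 4.74 FPKM in WT and 24.2 ± 5.71 FPKM in B4galt1-HKO, a difference smaller than the spread between mice. These shares are descriptions and were not tested.

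**Figure D3:**
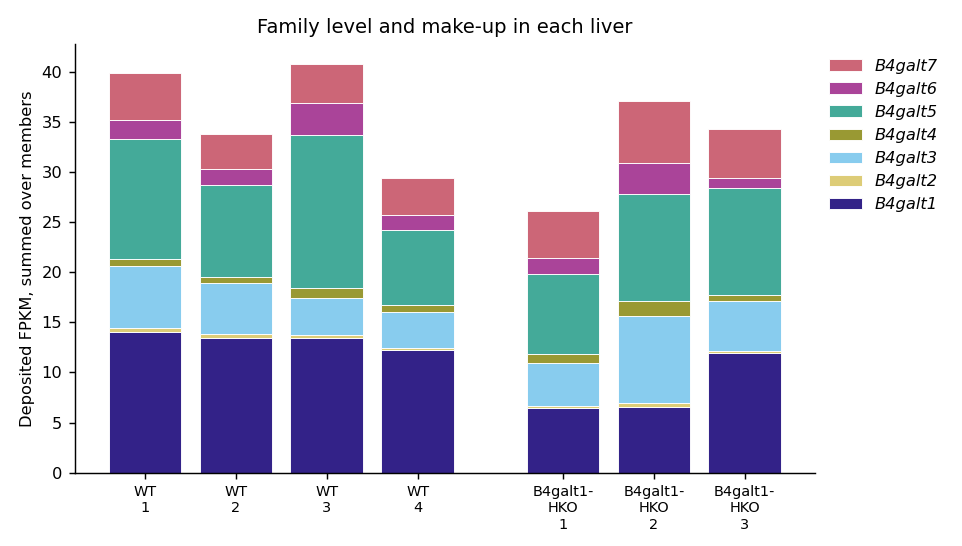
Deposited FPKM of the 7 members stacked for each liver, one bar per mouse. The part of B4galt1 is smallest in B4galt1-HKO replicates 1 and 2, at 24.8% and 17.6% of the bar, and reaches 34.8% in replicate 3.

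Genes that act before, beside and after the family were read from 8 lists, which hold 60 different genes, 55 of them tested. Of these, 9 were lower and 1 was higher in B4galt1-HKO, together 18.2% against 15.8% of all tested genes; in the single directions 7.83% of tested genes were lower and 8.0% higher. The median log2 fold change over the 55 genes was -0.17, beside 0.02 over all tested genes, and the medians of the single lists ran from -0.51 for UDP-galactose supply to 0.30 for the glycosaminoglycan linkage route. The count of 10 was 5 without WT replicate 2 and 6 without B4galt1-HKO replicate 1. The lists were chosen with earlier results of these data known.

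Among 9 genes that trim, branch, bisect or core-fucosylate the N-glycans on which B4GALT1 acts, 1 was called. *Mgat5*, which starts a branch of complex N-glycans, was at 3.33, 3.79, 12.3 and 0.961 CPM in WT and at 0.390, 0.513 and 1.12 CPM in B4galt1-HKO. The groups overlapped, through WT replicate 4, and the fold change was -2.92 on the log2 scale (SE 0.76, edgeR adjusted p = 0.0261), ranging from -3.50 to -0.64 over the other settings; it was called in 10 of the 17 settings that gave a value, and the call was lost with voom, with limma on all genes above 0 (with or without a mean trend), and without WT replicate 2, WT replicate 3, B4galt1-HKO replicate 1 or B4galt1-HKO replicate 2. *Man2a1*, the mannosidase with the highest FPKM of this list, was at 293 ± 47.4 CPM in WT (n = 4) and 214 ± 63.7 CPM in B4galt1-HKO (n = 3), and was not called.

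Of 5 genes of UDP-galactose supply, 1 was lower. *Galk1*, the galactokinase, was at 80.4 to 97.5 CPM in WT and at 56.7, 32.3 and 47.5 CPM in B4galt1-HKO, a log2 fold change of -0.91 (SE 0.22, edgeR adjusted p = 0.0183). All 3 B4galt1-HKO mice were below every control. *Ugp2*, which makes UDP-glucose and had the highest FPKM of the list, was at 379 ± 76.8 CPM in WT (n = 4) and 228 ± 69.8 CPM in B4galt1-HKO (n = 3). Its log2 fold change of -0.73 was not called by edgeR (adjusted p = 0.0799), and it was called in 8 of 21 alternatives, among them DESeq2 (-0.72, adjusted p = 0.0333), voom with library weights and edgeR without WT replicate 1.

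Of the 13 enzymes that extend or cap galactose, 2 were lower. *St6gal1*, the sialyltransferase that caps galactose of liver-made plasma glycoproteins with α-2,6-linked sialic acid, was at 42.0, 83.5, 62.6 and 53.1 CPM in WT and at 19.8, 16.2 and 19.8 CPM in B4galt1-HKO. All 3 B4galt1-HKO mice were below every control, B4galt1-HKO replicate 3 included, and the log2 fold change was -1.69 (SE 0.24, edgeR adjusted p = 0.00327). *St3gal3*, which adds α-2,3-linked sialic acid, was at 52.7 ± 9.04 CPM in WT (n = 4) and 31.6 ± 8.13 CPM in B4galt1-HKO (n = 3), with overlapping ranges and a log2 fold change of -0.74 (SE 0.22, edgeR adjusted p = 0.0452). With each of the 7 mice left out in turn, *St6gal1* was always called and *St3gal3* in 2 cases, those without WT replicate 3 or B4galt1-HKO replicate 3.

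Around B4GALT5 and B4GALT6, 1 of 9 genes of glycosphingolipid synthesis and breakdown was called. *Gla*, the lysosomal α-galactosidase that removes galactose from globo-series glycolipids, was at 11.6 to 24.8 CPM in WT and at between 7.27 and 7.53 CPM in the 3 B4galt1-HKO mice, a log2 fold change of -1.13 (SE 0.27, edgeR adjusted p = 0.0193). *St3gal5*, which makes the ganglioside GM3 from lactosylceramide and had the highest FPKM of this list, was at 268 ± 26.8 CPM in WT (n = 4) and 329 ± 122 CPM in B4galt1-HKO (n = 3), and was not called. *Gla* lost its call without WT replicate 2.

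Around B4GALT7, 5 of the 6 linker genes were tested, and 1 was higher and 1 lower. *B3gat3*, the glucuronyltransferase that closes the linker, was at 23.7, 21.0, 20.2 and 25.2 CPM in WT and at 40.1, 47.8 and 46.4 CPM in B4galt1-HKO. *Fam20b*, the kinase that phosphorylates its xylose, was at 21.8, 23.8, 25.3 and 21.8 CPM in WT and at 10.03, 11.6 and 13.3 CPM in B4galt1-HKO. The groups of both genes were apart, in opposite directions, with log2 fold changes of 0.99 (SE 0.17, edgeR adjusted p = 0.00581) for *B3gat3* and -0.99 (SE 0.18, edgeR adjusted p = 0.00782) for *Fam20b*. With any 1 mouse left out, both were still called.

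Among the other galactosyltransferases, 2 of 9 tested genes were lower. *C1galt1*, which makes the core of mucin-type O-glycans, was at 5.75 to 12.5 CPM in WT and at 4.55, 2.68 and 4.31 CPM in B4galt1-HKO, a log2 fold change of -1.09 (SE 0.34, edgeR adjusted p = 0.0471), and with 1 mouse left out it was called in 1 of 7 cases, without WT replicate 1. *Colgalt1*, the collagen galactosyltransferase, was at 97.6 ± 8.55 CPM in WT (n = 4) and 58.04 ± 7.53 CPM in B4galt1-HKO (n = 3), a log2 fold change of -0.75 (SE 0.18, edgeR adjusted p = 0.0207), and lost its call without WT replicate 2 or B4galt1-HKO replicate 1. Of the 8 genes that remove or recognise galactose and sialic acid, *Lgals9*, a galactose-binding lectin, was lower, at 237 to 294 CPM in WT and at 131, 113 and 158 CPM in B4galt1-HKO (log2 fold change -1.0, SE 0.20, edgeR adjusted p = 0.00946). *Lgals3*, the lectin with the highest FPKM of that list, was at 361 ± 20.8 CPM in WT (n = 4) and 320 ± 77.7 CPM in B4galt1-HKO (n = 3), and was not called. *Lalba*, the cofactor with which B4GALT1 makes lactose in the mammary gland, was not analysed here.

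**Figure D4:**
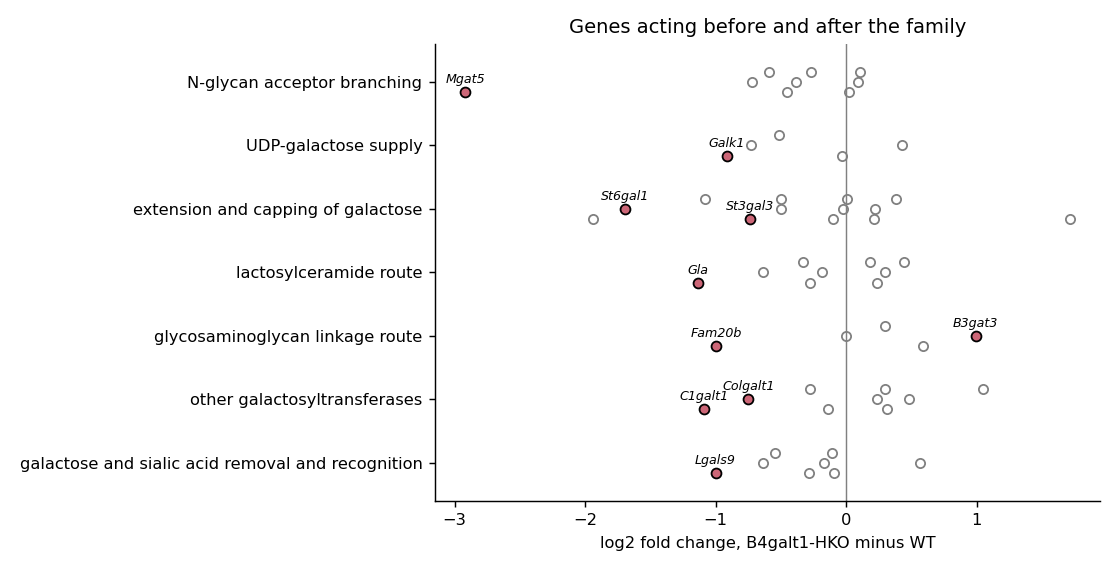
Log2 fold change, B4galt1-HKO minus WT, of each tested gene in the lists of genes acting before and after the family, one point per gene, with called genes marked. The called genes include St6gal1 at -1.69, Fam20b at -0.99 and B3gat3 at 0.99.

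The 5 genes with levels most like those of *B4galt1* were sought among the 7559 tested genes at or above the median level, predicted genes left out, by Pearson's r of log2 CPM over the 7 mice. They were *Gstm2*, a glutathione S-transferase of a family of close paralogs (r = 0.992, Spearman's rho = 0.714), *Psmd11*, a subunit of the proteasome lid (r = 0.992, rho = 0.929), *Tmem147* (r = 0.99, rho = 0.75), *Slc4a1ap* (r = 0.99, rho = 1) and *Cct3*, a chaperonin subunit (r = 0.988, rho = 0.75). All 5 were lower in B4galt1-HKO replicates 1 and 2 than in WT and close to the controls in replicate 3. *Psmd11*, for one, was at 68.0 to 82.6 CPM in WT and at 39.8, 36.0 and 76.9 CPM in B4galt1-HKO. Without B4galt1-HKO replicates 1 and 2, r over 5 mice was 0.0638 for *Gstm2*, 0.259 for *Cct3* and 0.441 for *Tmem147*, whose likeness thus rested on those mice, and 0.848 for *Psmd11* and 0.921 for *Slc4a1ap*. The genes were chosen by r over all 7 mice, so the r over 5 of them is no independent support. The points share libraries and depth, and these values are descriptions. Within the family, r with *B4galt1* ran from -0.875 for *B4galt4* to 0.268 for *B4galt5*.

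**Figure D5:**
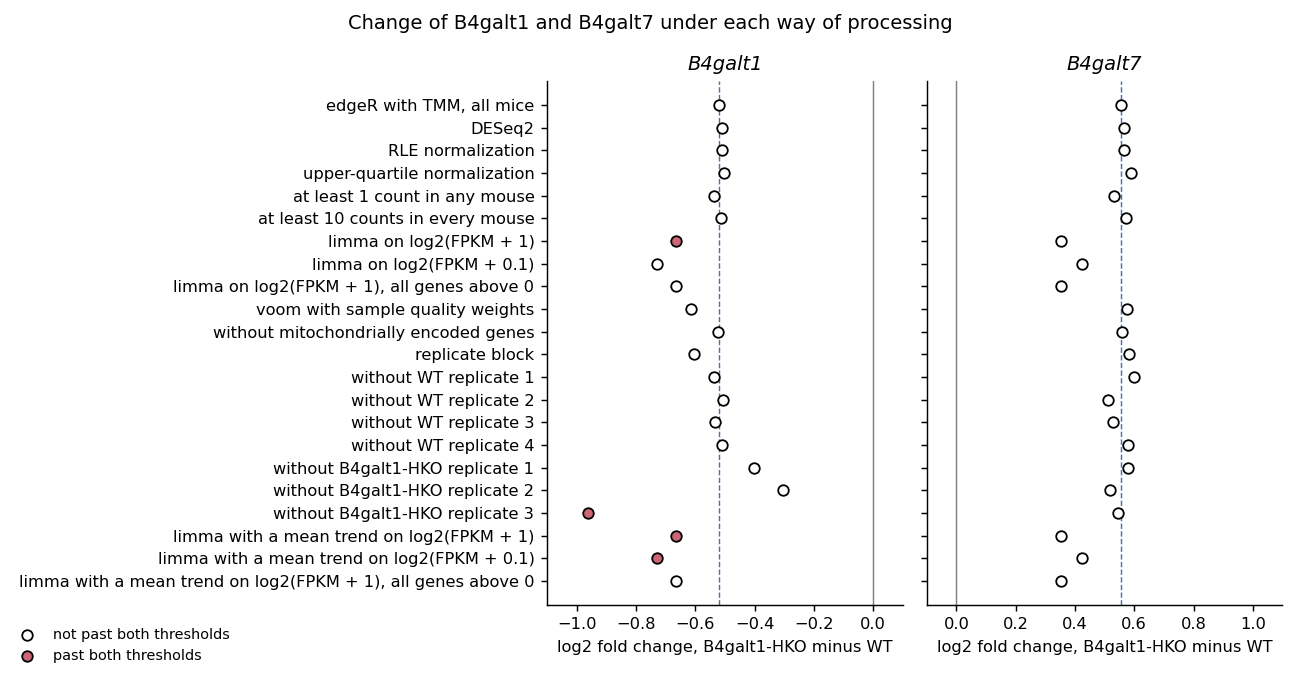
Log2 fold change of B4galt1 and B4galt7, B4galt1-HKO minus WT, under each way of processing, with filled points where a gene passed both thresholds and a dashed line at the edgeR value. B4galt1 ranges from -0.96 to -0.30 and passed in 4 of 21 other settings; B4galt7 ranges from 0.35 to 0.60 and passed in none.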

How the data were processed

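Total RNA of 7 livers was extracted with TRIzol and made into libraries with a VAHTS Universal V6 kit, which the sources used here do not describe as stranded. Per the labels, the submitters' processing notes name fastp, HISAT2, HTSeq, DESeq2, R 3.2.0 and the build GRCm39, with no annotation given. The deposited counts are reads per gene as whole numbers, which the authors had not normalized, and the deposited FPKM divide them by gene length and library total. RefSeq tables of GRCm38.p6, another build, were used for neighbouring genes and for promoters, with coordinates of that build.

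Counts were analysed in R 4.3.3 with edgeR 4.0.16 (filterByExpr with a minimum count of 10 and total of 15, TMM, quasi-likelihood test, Benjamini-Hochberg over 15179 genes), and calls needed the study's thresholds, adjusted p below 0.05 with a log2 fold change beyond 0.58 either way. No covariate was fitted. DESeq2 1.42.0 and limma 3.58.1, the latter on log2(FPKM + 1) or log2(FPKM + 0.1) with an FPKM minimum of 1 in at least 3 mice, or with voom, were alternatives, with other normalizations and filters, a replicate block, and each mouse left out. The replicate block used replicates 1 to 3 of each group and left out WT replicate 4. Fold changes on log2(FPKM + pseudocount) understate those of low genes. At these depths 3 counts equal 0.0756 to 0.0980 CPM before TMM. Scripts were tested on simulated data. 0 columns of other samples were present.

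The family, gene lists and tests were chosen with earlier results of these data known. One gene of the pathway lists is not reported here and was left out of their counts. Genes named are the 7 members, annotated genes within 5 kb of them, the called genes and highest-FPKM gene of each pathway list, and the 5 genes most like *B4galt1*. Outside this rule, called cell type markers, *Ly6g* and *Lalba* were named from the lists, after their values were seen. No 2 libraries were alike within sampling noise.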

Additional observations from a re-analysis of the deposited data

Results flagged for a closer look

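*B4galt6* in WT replicate 3 stood apart from the other controls, at 17.8 CPM against 9.30 to 10.1 CPM. The gap to the nearest control was 0.906 of the range of the 4 mice, above the 95% critical value of Dixon's test. The levels of the 7 members, the summed FPKM and the *B4galt1* share were examined this way in WT, 9 sets of 4 mice, and chance marks about 5% of such sets. The B4galt1-HKO group, with 3 mice, was not examined. B4galt1-HKO replicate 2 had a similar level, 17.3 CPM.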

How the results depend on the processing

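*B4galt3* and *B4galt7* kept their direction and were not called in any of 21 alternatives, and *B4galt2* and *B4galt4* in any of 17, the 4 limma settings with an FPKM minimum having no value for them. *B4galt1* passed both thresholds in 4 of 21: limma on log2(FPKM + 1), at -0.67 (adjusted p = 0.0398); limma with a mean trend in the variance prior on log2(FPKM + 1), at -0.67 (adjusted p = 0.0389), and on log2(FPKM + 0.1), at -0.73 (adjusted p = 0.0382); and edgeR without B4galt1-HKO replicate 3, at -0.96. Its adjusted p ran from 0.0139 to 0.461 over all alternatives. The mean trend settings were chosen after seeing the data. Without the trend, log2(FPKM + 0.1) gave no call. FPKM is scaled by library totals, and its median over genes was -0.14 with a pseudocount of 1 and -0.18 with 0.1. Of the calls, 24.5% and 23.1% were higher in B4galt1-HKO (17.6% with all genes above 0), against 50.5% by edgeR.

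*B4galt5* turned to 0.0067 with upper-quartile normalization and 0.053 with voom. *B4galt6* turned to 0.041 with upper-quartile normalization and 0.011 with at least 10 counts in every mouse. Leaving out 1 mouse gave -0.96 to -0.30 for *B4galt1*, -0.91 to -0.11 for *B4galt2*, 0.26 to 0.62 for *B4galt3*, 0.11 to 0.68 for *B4galt4*, -0.18 to 0.15 for *B4galt5*, -0.43 to 0.25 for *B4galt6* and 0.51 to 0.60 for *B4galt7*. The cause was not tested.

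The count of called genes, 2404 of 15179, was 3271 with DESeq2, 1246 with limma on all genes above 0 in FPKM, 1330 with the mean trend added, and 885 to 2396 with 1 mouse left out. The 10 called pathway genes became 5 to 11 with 1 mouse left out. With limma on all genes above 0, *Gla*, *Mgat5*, *C1galt1* and *Colgalt1* lost their calls, and with voom *Mgat5* and *C1galt1*. *Man2a1* was called in 3 of 21 alternatives, all limma on FPKM.

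No pairing of mice by replicate number was seen. The correlation of same-numbered deviations ran from -0.337 to 0.0777, and that of differently numbered ones from -0.319 to 0.49. Correlations between so few mice cannot exclude a pairing. With the number as a replicate block, replicates 1 to 3 of each group were used and WT replicate 4 was left out. In that fit 1225 genes and 5 pathway genes were called, and no member. *Galk1*, *Lgals9*, *St3gal3*, *C1galt1* and *Colgalt1* lost their calls. Leaving out WT replicate 4 alone gave 1552 called genes, and *St3gal3* and *C1galt1* lost their calls there too. The effect of the block alone was not tested. The summed family level moved by less than 1 SD in each group on TMM-scaled CPM per kilobase, from 36.0 to 34.43 in WT and from 32.5 to 34.05 in B4galt1-HKO.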

Other observations

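Genes that overlap a member or lie within 5 kb of it in RefSeq (GRCm38.p6) were examined, since reads of adjoining genes cannot always be told apart where strand is not stated. Beside *B4galt2*, *Atp6v0b*, a subunit of the vacuolar proton pump, was at 80.7 ± 4.55 CPM in WT (n = 4) and 117 ± 0.548 CPM in B4galt1-HKO (n = 3), a log2 fold change of 0.54 with an edgeR adjusted p of 0.0471, under the size threshold. *Ccdc24*, also beside *B4galt2*, had 70 counts in B4galt1-HKO replicate 2 and 3 to 12 counts in the other mice. *Slc6a9*, a glycine transporter, had a log2 fold change of -0.12. *Ppox*, an enzyme of haem synthesis beside *B4galt3*, was at 13.6 ± 4.25 CPM in WT (n = 4) and 17.1 ± 5.67 CPM in B4galt1-HKO (n = 3), a log2 fold change of 0.33 (edgeR adjusted p = 0.436). *Tmed9*, a cargo receptor of the early secretory pathway beside *B4galt7*, was at 61.4 ± 7.33 CPM and 65.1 ± 8.05 CPM, a log2 fold change of 0.08 (edgeR adjusted p = 0.775). No value was used here for *Mir5123*, *Gm15575*, *Gm10269* and *Gm31437*. *Gm40233*, *Gm12841* and *Upk1b* had at most 12 counts in any library and were not tested.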
